A study of Drosophila melanogaster with 6 samples.

Results

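The 185 genes described here were linked to Klumpfuss (Klu) by only 1 of the 2 gene lists deposited with a targeted DamID experiment in the Drosophila midgut. They carry an identifier that is present in the semicoherent list, which held 1858 identifiers, and absent from the coherent list, which held 1667. Of the 199 identifiers only in the semicoherent list, 13 non-coding RNAs and CycB were left out by the rule, and 1659 identifiers were in both lists. The study describes a gene set of the size of the coherent list both by peaks seen in every replicate and by reproducible peaks, without using these names, and what semicoherent means is not given in the sources used here. The genes were selected on peak calls made from the same libraries whose read counts are given below, and all counts and comparisons of them are a description with no test.

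The study asked where Klu binds in intestinal progenitors. Flies of the genotype esgts, UAS-Flp with UAS-Klu Dam were compared with flies that carried UAS-Dam control in the same background, in 3 replicates each, and replicate sets were isolated on different dates. Flies were reared at 18 °C and shifted for 24 h before dissection, and each sample was the DNA of 30 to 40 whole midguts. In both groups Dam lay behind a minimal heat-shock promoter and a STOP cassette, which Flp removes in cells that express esg-Gal4, so Esg-positive stem cells and enteroblasts, and any cell that arose from them after removal, could carry the methylase. The Klu fusion was a transgene at a single insertion site and not the endogenous protein. DamID reads DNA and not RNA, so the labelled cell type could not be checked against marker expression, and what follows rests on the Klu-Dam counts alone, with no value set against Dam by itself.

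Klu is a zinc-finger transcription factor of the WT1 and EGR family. In the adult midgut, stem cells divide to give enteroblasts, which become absorptive enterocytes, or entero-endocrine precursors. Klu was first known from neural lineages of the fly. In DamID, Dam methylates adenine in GATC sites near the place where the fused protein sits on chromatin, methylated GATC fragments are amplified and sequenced, and a peak is a run of fragments with more reads than a Dam-only library. A peak is therefore bounded by GATC sites, and it tells the neighbourhood of the contact rather than the base that was bound.

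The textbook core of sites bound by this family is GCGTGGG, and sequences around it are shown for members' peaks because they are the part of these regions that the factor could read. The peaks shown are those with the most reads among members' peaks for which sequence is given, with the addition of the peak at Axn, and the capitals mark the core. Sequence is that of the Release 6 reference (dm6) and is printed in the orientation in which the core reads forward, with shorter flanks where an untranslated region lay beside it. The peak of Ir62a held a match in intergenic sequence at chr3L:1534800-1534886 and a match in a coding exon of the neighbouring gene CG12091 at chr3L:1536223-1536309, both on the minus strand. The match in the CG13604 peak was in promoter sequence, inside the neighbouring gene Rab7, at chr3R:23993281-23993307 on the minus strand. In the peak shared by Kat60, Vps37B and CG14664, matches lay inside Kat60, in a coding exon at chr3R:5228483-5228569 and in an intron or non-coding exon at chr3R:5229110-5229196, both on the minus strand. The match in the peak of Prm, Cp16 and Cp19 was in 3' UTR sequence at chr3L:8733634-8733660 on the plus strand. The match in the higher of the peaks of br was outside br, in a coding exon where the genes dor and Mur2B overlap, at chrX:1667188-1667274 on the minus strand. The match beside Axn was in promoter sequence, inside the neighbouring gene RpS28a, at chr3R:30022416-30022502 on the minus strand.
Ir62a peak intergenic: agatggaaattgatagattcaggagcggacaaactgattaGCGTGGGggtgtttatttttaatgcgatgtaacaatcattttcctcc
Ir62a peak in CG12091: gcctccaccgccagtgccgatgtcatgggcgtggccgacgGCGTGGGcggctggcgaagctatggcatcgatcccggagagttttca
CG13604 peak: gcgtcggtgtGCGTGGGtctttgttgt
Kat60 peak coding exon: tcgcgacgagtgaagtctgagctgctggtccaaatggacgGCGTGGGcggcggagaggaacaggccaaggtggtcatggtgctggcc
Kat60 peak intron or non-coding exon: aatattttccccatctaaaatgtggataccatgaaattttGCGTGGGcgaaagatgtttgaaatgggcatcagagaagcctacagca
Prm peak: tcggtgcggaGCGTGGGgctctattcg
br peak in dor: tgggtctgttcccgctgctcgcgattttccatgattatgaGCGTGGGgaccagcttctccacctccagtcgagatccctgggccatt
Axn peak in RpS28a: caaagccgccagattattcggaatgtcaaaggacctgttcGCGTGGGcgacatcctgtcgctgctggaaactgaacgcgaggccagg

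Members' peaks held this core about as often as the other semicoherent peaks. A match to GCGTGGG on either strand was found in 30 of 124 members' peaks, which is 24.2% with an exact 95% binomial interval from 17.0 to 32.7%. The share over all 1250 semicoherent peaks was 20.9%, inside that interval. Of 85392 windows of 1564 bp, the median width of members' peaks, taken across the chromosome arms, 11.4% held a match. Per kb of sequence, matches numbered 0.147 in members' peaks, 0.128 in all semicoherent peaks and 0.0795 in the arms. The shorter motif GTGGGNG, which overlaps the first wherever GCGTGGG is followed by any base and G, was in 64.5% of members' peaks, in 67.0% of all semicoherent peaks and in 54.0% of the windows. A match is a description of letters and not evidence of a bound site.

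The 185 genes were listed with 124 distinct peaks in 186 pairings of a gene and a peak. The gene br was the only member with more than 1 peak, and many genes shared a peak: 84 peaks were listed with 1 member, 23 with 2, 12 with 3 and 5 with 4. Genes that share a peak share its reads, so they are not separate measurements. Members lay on every major arm, with 28 members on X, 70 on chromosome 2 and 87 on chromosome 3, and none lay on chromosome 4. All 185 identifiers were found in the reference annotation, 184 as protein-coding genes and Uhg2 as a non-coding gene, and 40 carry another name there. For 2 members the gene is uncertain: the identifier listed for Taf10 is that of Taf10b in the reference, and the identifier listed for CG32373 is that of Ank2, which lies 9765 bp from the peak, whereas the peak is inside the reference's CG32373.

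Most members entered the list with a peak that the coherent set did not have. No coherent peak overlapped 109 of the 124 peaks by even 1 bp, and these peaks were listed with 170 members. The other 15 peaks, each listed with 1 member, overlapped a coherent peak but had other edges. No member's peak had the same edges as a coherent peak, although 883 of the 1250 semicoherent peaks did. Only 131 semicoherent peaks in all lacked a coherent overlap, so members' peaks made up most of that class, and the remaining 22 were listed with no member. The rule largely sets these counts, because a gene listed with a peak found in both sets would mostly be in both lists. Most of the 109 peaks lay far from any coherent peak. Their distance to the nearest coherent peak had a median of 22625 bp and ranged from 156 to 221262 bp, with 8 within 2 kb and 72 more than 10 kb away.

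The deposited start positions also differed between these classes. Against the middle of the GATC site at which a peak begins, deposited semicoherent starts lay 1 bp further on in all 883 peaks with shared edges. They lay 2 bp further on in 119 of the 124 members' peaks, in 130 of the 131 peaks without a coherent overlap and in 122 of the 236 peaks with other edges. The offset was removed before edges were compared, and where it came from was not tested.

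Members' peaks were low for this data set but spanned a wide range. Reads are given as CPM, the reads of a peak in a library divided by the reads in all semicoherent peaks of that library and multiplied by 1000000. Those totals were 20981775, 19648769 and 20012044 reads in Klu-Dam replicates 1, 2 and 3, and they are not the depth of the libraries. The median of the members' peaks was 53.6 CPM as the mean of 3 libraries, with quartiles of 32.3 and 131, against 132 CPM over all semicoherent peaks and 136 over the 883 peaks with shared edges. Of the 124 peaks, 93 (75.0%) fell below the median of all peaks and 65 fell below the lower quartile of all, 58.0 CPM, while 7 were among the 100 highest. The 109 peaks with no coherent overlap had a median of 48.7 CPM and the 15 with other edges had 261 CPM. In the same classes, the 22 and 221 peaks with no member had medians of 47.3 and 201 CPM. The median width was 1564 bp in members' peaks and 1756 bp over all peaks, and reads per kb of width had medians of 673 and 1560, so members' peaks were also low per length. GC content (medians of 46.2 and 45.4%) and the number of GATC fragments per peak (6 in both) were close in both.

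A few peaks held most of the reads. The 10 highest members' peaks took 71.0% of the reads in members' peaks in replicate 1, 70.0% in replicate 2 and 74.7% in replicate 3. By contrast the median member's peak held 814, 1057 and 1411 reads in the 3 libraries, and the lowest count in a library was 81. The plot of named peaks shows that the highest and lowest members differ by more than 3 decades on the log axis.

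**Figure D1:**
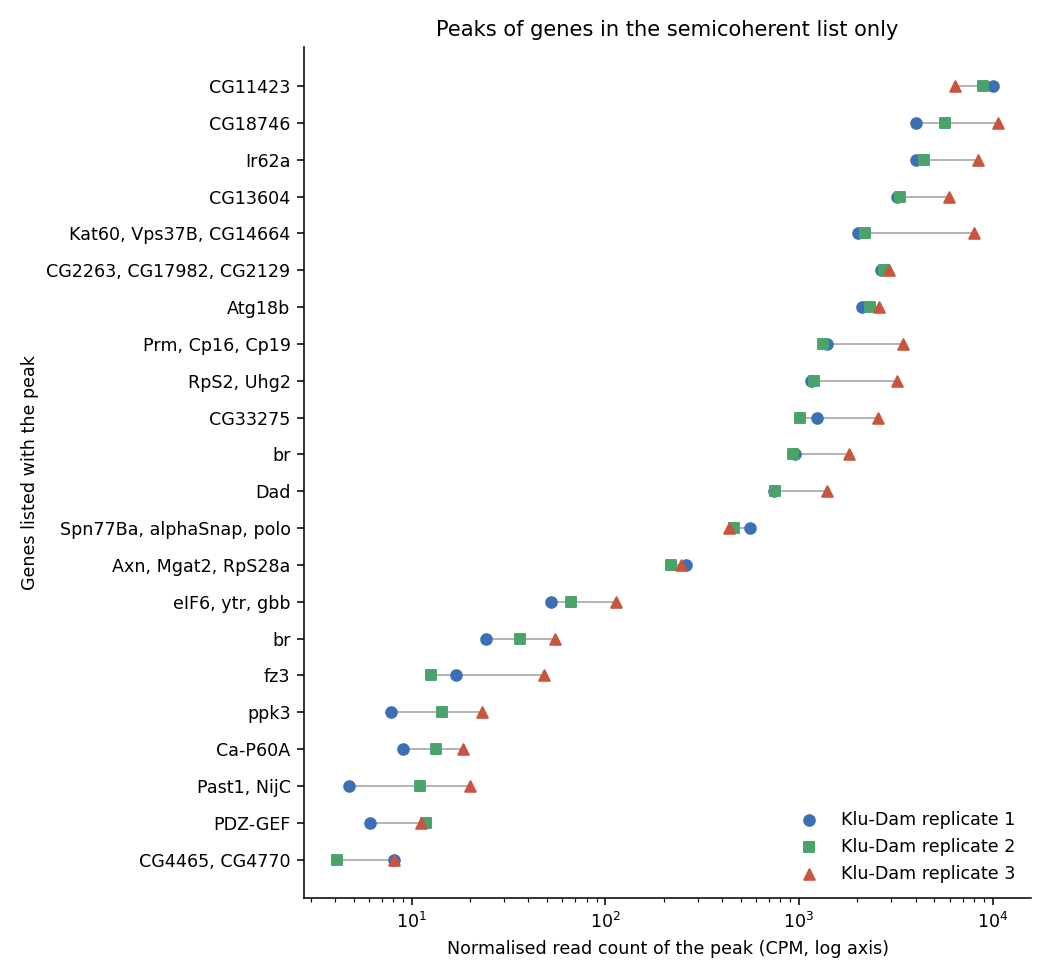
Normalised read count (CPM, log axis) of named members' peaks in the 3 Klu-Dam libraries, 1 row per peak labelled with the members listed with it, and grey lines joining the lowest and highest library. Peaks run from a mean of 8458 CPM at CG11423 to 6.74 CPM at CG4465 and CG4770, and replicate 3 is the rightmost symbol in most rows.

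The highest peak was that of CG11423, named ND-51L1 in the reference and related to a subunit of respiratory complex I. It covered 2R from 17597136 to 17599649 and ran over the end of the gene. Its counts were 10006 CPM in replicate 1, 8964 in replicate 2 and 6405 in replicate 3, a mean of 8458 ± 1853 CPM (SD, n = 3) that ranked 25 of 1250. It was the member's peak with the largest deficit in replicate 3, with a log2 ratio of replicate 3 over the mean of replicates 1 and 2 of -0.57. All 2514 bp of it also lay inside Smurf, which encodes a ubiquitin ligase that limits BMP signalling and which was in neither list.

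The next peaks were higher in replicate 3 than in the other libraries. CG18746, for which no role is given here, had 4019, 5679 and 10661 CPM in replicates 1, 2 and 3 (mean 6786 ± 3457 SD, n = 3), and its peak lay 1575 bp upstream of the gene. Ir62a, a member of the ionotropic receptor family of chemosensory receptors, had 4005, 4433 and 8426 CPM (mean 5621 ± 2438 SD, n = 3). Its peak, the widest of all members' peaks at 5267 bp, lay 1428 bp upstream of Ir62a and covered all of CG12091, a gene in neither list. The peak of CG13604, named Epp in the reference, had 3210, 3338 and 5950 CPM (mean 4166 ± 1546 SD, n = 3). It ran over the gene's start and reached 562 bp into Rab7, a small GTPase of late endosomes that was in neither list.

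The peak of Kat60 was the one among the 10 highest in which the libraries differed most. Kat60 encodes the microtubule-severing subunit of katanin, and the peak ran over its end, enclosed Vps37B, a subunit of the ESCRT-I complex of endosomal sorting, and was listed with CG14664 as well. Counts were 2005 CPM in replicate 1, 2198 in replicate 2 and 8007 in replicate 3 (mean 4070 ± 3411 SD, n = 3). The SD was nearly as large as the mean, and the log2 ratio of replicate 3 was 1.93. The peak of Prm, which encodes paramyosin of muscle thick filaments, behaved alike, with 1392, 1322 and 3439 CPM (mean 2051 ± 1203 SD, n = 3). That peak enclosed the chorion gene Cp16 and lay 1161 bp from Cp19, both of which encode eggshell proteins. Another peak of this kind ran over the end of RpS2, a protein of the small ribosomal subunit, and was also listed with Uhg2, a host gene of small nucleolar RNAs. It had 1154, 1196 and 3214 CPM (mean 1854 ± 1177 SD, n = 3) and covered the whole of Bka, which was in neither list.

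In contrast, some high peaks were even across the libraries. The peak inside CG2263, the alpha subunit of phenylalanyl-tRNA synthetase (alpha-PheRS in the reference), had 2635, 2758 and 2917 CPM (mean 2770 ± 141 SD, n = 3) and was also listed with CG17982 and CG2129. The peak over the end of Atg18b, a WIPI-family protein of autophagosome formation, had 2113, 2312 and 2594 CPM (mean 2340 ± 242 SD, n = 3). In both, replicate 3 was still the highest library. CG33275, named Pura in the reference, completed the 10 highest with a peak inside the gene of 1231, 1016 and 2551 CPM (mean 1599 ± 832 SD, n = 3).

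The lowest peaks rested on the fewest reads. CG4465 and CG4770 shared a peak with 169, 81 and 161 reads in replicates 1, 2 and 3, or 6.74 ± 2.27 CPM (SD, n = 3), which ranked 1248 of 1250. PDZ-GEF, an exchange factor for the small GTPase Rap1, had 128, 233 and 222 reads (9.68 ± 3.13 CPM, SD, n = 3). Past1, an EHD-family endocytic protein, and its neighbour NijC, a ninjurin, shared 99, 217 and 399 reads (11.9 ± 7.65 CPM, SD, n = 3). The sarcoplasmic calcium pump Ca-P60A, named SERCA in the reference, had 13.6 ± 4.70 CPM (SD, n = 3). The sodium channel gene ppk3 had 15.1 ± 7.61 CPM (SD, n = 3) in a peak 982 bp downstream, wholly inside bw, a gene in neither list. In PDZ-GEF, Past1, Ca-P60A and ppk3 replicate 1 was the lowest library, and in the peak of CG4465 and CG4770 replicate 2 was.

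Across members' peaks, reads were unevenly spread over the libraries in 1 direction. Replicate 3 was the highest library in 90 of 124 members' peaks (72.6%), against 43.7% of all semicoherent peaks and 31.5% of the peaks with shared edges. Replicate 1 was the lowest library in 96 members' peaks (77.4%), against 51.7% of all semicoherent peaks and 43.8% of those with shared edges. In 18 members' peaks (14.5%) replicate 3 was more than 2 times the mean of the other libraries, against 6.56% of all semicoherent peaks. The semicoherent peaks that were listed with no member but were of the same classes were alike. Replicate 3 was highest in 72.4% of the 221 with other edges and in 81.8% of the 22 with no coherent overlap, and it was more than 2 times the mean of the others in 16.3 and 18.2%. Replicate 1 was lowest in 66.5% of those 221 peaks and in 72.7% of those 22. Pair by pair, replicate 3 was above replicate 1 in 111 members' peaks (89.5%) and above replicate 2 in 94 (75.8%), where the shares over all peaks were 59.8 and 46.2%. Because members' peaks were selected on calls made in these libraries, the shares are a description with no test. For its reproducibility step the study names replicates 1 and 2 and not replicate 3. Whether that step bears on these shares was not tested.

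**Figure D2:**
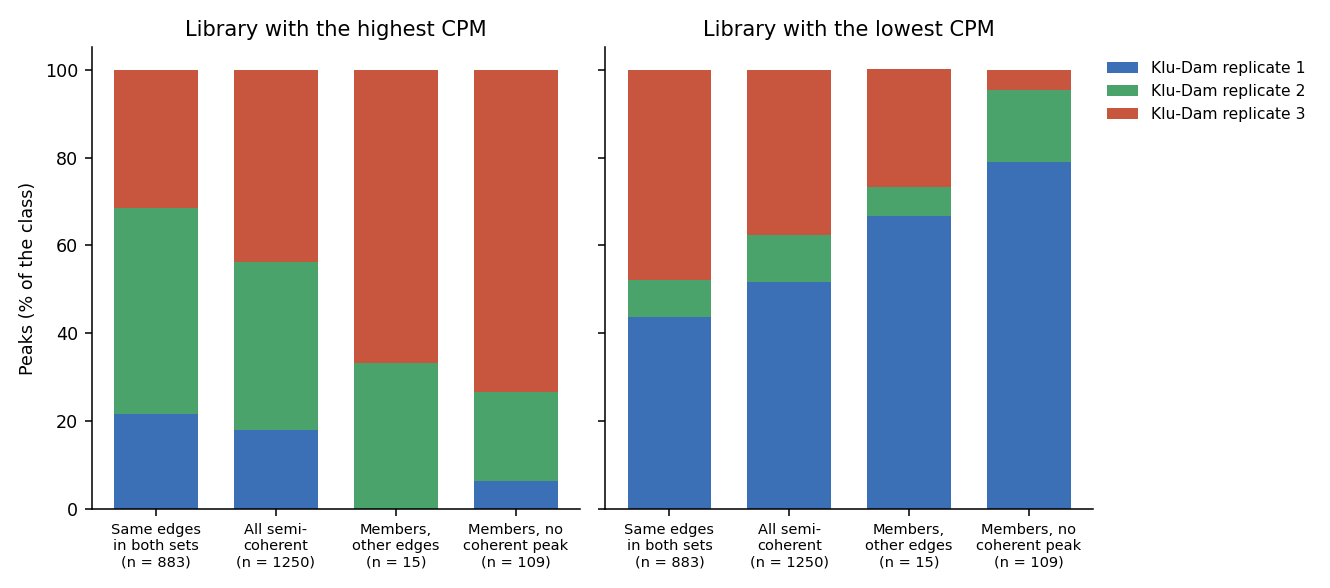
Share of peaks (%) whose highest (left) or lowest (right) CPM was in each Klu-Dam library, for the 883 peaks with the same edges in both sets, all 1250 semicoherent peaks, the 15 members' peaks with other edges and the 109 members' peaks with no overlapping coherent peak. Replicate 3 was highest in 31.5, 43.7, 66.7 and 73.4% of these classes, and replicate 1 was lowest in 43.8, 51.7, 66.7 and 78.9%.

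The size of the unevenness was moderate in most members' peaks. The median log2 ratio of replicate 3 over the mean of replicates 1 and 2 was 0.48, with quartiles of 0.21 and 0.86, against 0.05 over all semicoherent peaks and -0.10 over those with shared edges. Semicoherent peaks that had no coherent overlap but no member (n = 22) had a median of 0.59, and peaks with other edges but no member (n = 221) had 0.43. A ratio above 0 was thus also found in these peaks outside the members. The median coefficient of variation over the 3 libraries was 28.2% in members' peaks and 17.8% over all peaks. In the peaks with no member it was 30.4% for the 22 with no coherent overlap and 21.3% for the 221 with other edges. Counting error alone would give members' peaks a median of 3.15% and at most 9.03%, and since amplified reads are not independent molecules these figures and all binomial intervals cover counting error only. The median coefficient of variation of members' peaks was 17.2% without replicate 1, 37.8% without replicate 2 and 19.5% without replicate 3, beside 16.3, 19.8 and 10.7% over all peaks. Together, members' peaks took 4.48% of the reads in semicoherent peaks in replicate 1, 4.75% in replicate 2 and 7.25% in replicate 3, a mean of 5.49 ± 1.53% (SD, n = 3). Replicate sets were isolated on different dates, so date and replicate cannot be told apart.

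**Figure D3:**
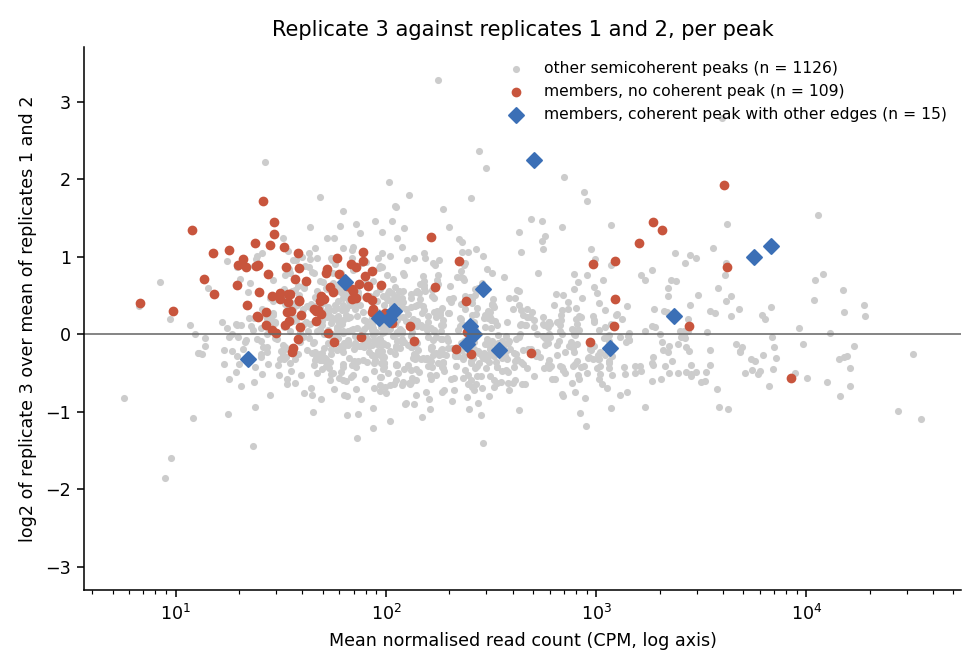
Log2 ratio of replicate 3 over the mean of replicates 1 and 2 (vertical axis) against the mean CPM of the peak (horizontal log axis), 1 point per semicoherent peak, with members' peaks in colour by class. Most members' peaks lie above 0, with a median of 0.48, and the highest is the peak of wech at 2.25.

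The extremes of this ratio fell on genes of different kinds. The highest was at wech, a TRIM and NHL protein of integrin adhesion, with 201, 249 and 1072 CPM in replicates 1, 2 and 3. After wech (2.25) and the Kat60 peak (1.93) came fz3 (1.71), a receptor of the Frizzled family, then Sema-5c, a semaphorin, and the RpS2 peak (both 1.45). Below CG11423 (-0.57), the most negative ratios were those of CG13380 (-0.32) and of nuf (-0.25), an effector of Rab11 in recycling endosomes. The peak shared by polo, alphaSnap and Spn77Ba (-0.24) followed. At nuf the libraries held 262, 275 and 225 CPM, so that replicate 3 was the lowest library there. The peaks of wech, Sema-5c and CG13380 did not touch these genes and lay 1721, 966 and 1206 bp upstream of them.

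Among the 15 peaks that extended a coherent peak, the added sequence changed the listed distance but mostly held few reads. Genes were listed up to 2000 bp from a peak, and in all 186 pairings the listed distance was that from the start of the peak, or 0 where an edge of the peak lay in the gene. By that measure 14 of the 15 genes lay beyond the limit from the coherent edges, at distances from 2023 bp for CG18746 to 3731 bp for wech. Measured from the nearest coherent edge, 9 of the 15 lay beyond 2000 bp, 5 lay nearer, such as Atg18b at 158 bp and CG18281 at 179 bp, and v(2)k05816 was overlapped. Sequence was added at the start of 8 peaks, at the end of 4 and at both sides of 3, with a median of 771 bp and a range from 275 to 3336 bp. In the median peak 2.68% of the reads lay in the added sequence, and in 10 of the 15 the share was under 10% in every library. At CG18746 the added 448 bp held 0.0593, 0.0654 and 0.0417% of the peak's reads in replicates 1, 2 and 3. At Ir62a it held 0.144, 0.158 and 0.206%, and at Atg18b 0.241, 0.365 and 0.399%. The counts of these 3 members were thus nearly in full those of the coherent peak. Its nearest edge lay 2023 bp from CG18746 and 2143 bp from Ir62a, but 158 bp from Atg18b.

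In the other 5 peaks a library reached 10%. At l(1)10Bb, CG42394 and CG13380 this was so in replicate 3 alone, with 11.9, 11.9 and 10.8%, and at wech and CG8516 in every library. At wech the coherent part held 640, 943 and 934 reads of the peak's 4217, 4891 and 21453, so that 84.8, 80.7 and 95.6% of the reads lay in the 2010 bp added. The added sequence was denser than the coherent part there, at 4651 against 733 reads per kb, and it was less dense in the other 14 peaks. At CG8516 a coherent peak of 468 bp was extended to 3804 bp, and 20.4, 25.0 and 42.4% of the reads lay in the added sequence. By the listed measure, v(2)k05816 was the 1 gene of the 15 that did not lie beyond the limit from the coherent edges. This gene, named FASN2 in the reference, encodes a fatty acid synthase. It overlapped both the coherent and the semicoherent peak, and the coherent list gave that peak to its neighbour CG3523 alone. Why the 15 genes are absent from the coherent list was not tested.

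**Figure D4:**
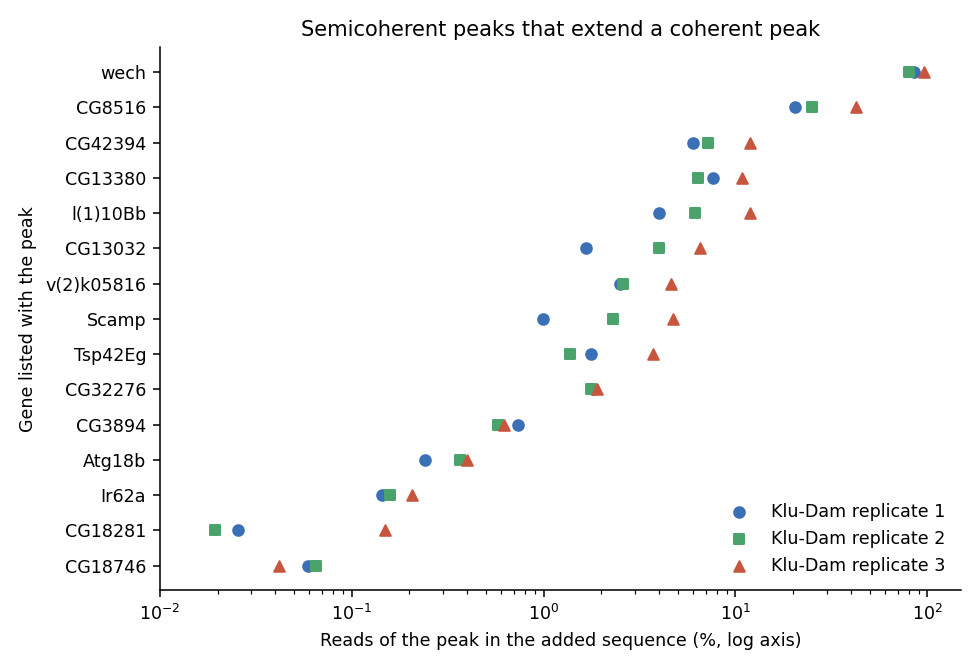
Share of a peak's reads (%, log axis) that lay in the sequence added to a coherent peak, for the 15 members' peaks with other edges in the 3 Klu-Dam libraries. Shares run from 0.0195% at CG18281 to 95.6% at wech, and 10 of the 15 peaks stay under 10% in every library.

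By the deposited distances, 119 of the 185 members were overlapped by their peak, and by the reference annotation 125 were. In the reference, the peak lay inside the gene in 55 pairings, over its end in 33, over its start in 30, and around the whole gene in 7. In 37 pairings the peak lay upstream of the gene and in 24 downstream, with a median gap of 1175 bp from the nearest edge of the peak. Over pairings, the median CPM was 41.8 for peaks inside a gene, 51.0 over a start, 74.7 over an end, 58.4 upstream and 38.4 downstream. It was 223 CPM in the 7 pairings with the peak around the whole gene. A peak listed with several members counts more than once in these medians. By the listed distance, measured from the peak's start, those just inside the limit of 2000 bp were CG17029 at 1997 bp, the forkhead gene fd68A at 1995 bp and l(1)10Bb at 1986 bp. From the nearest edge of the peak these genes lay 1206, 1621 and 1984 bp away. Just outside the limit by the listed measure, and in neither list, were CG33985 at 2013 bp, the tubulin-binding cofactor Tbcb at 2028 bp and CG3740 at 2059 bp.

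Peak midpoints were spread over gene features much as those of all semicoherent peaks. Promoter sequence, taken as the 500 bp before and after any transcript start, held the midpoint of 33 members' peaks (26.6%, exact 95% interval from 19.1 to 35.3%), against 26.0% of all semicoherent peaks. Coding exons held 42 (33.9%, from 25.6 to 42.9%), against 27.2%. Introns or non-coding exons held 30 (24.2%, from 17.0 to 32.7%), against 30.1%, and 3' UTRs held 12 (9.68%), against 10.2%. In each of these classes the share over all peaks lay within the members' interval. Only 6 midpoints (4.84%) were intergenic.

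**Figure D5:**
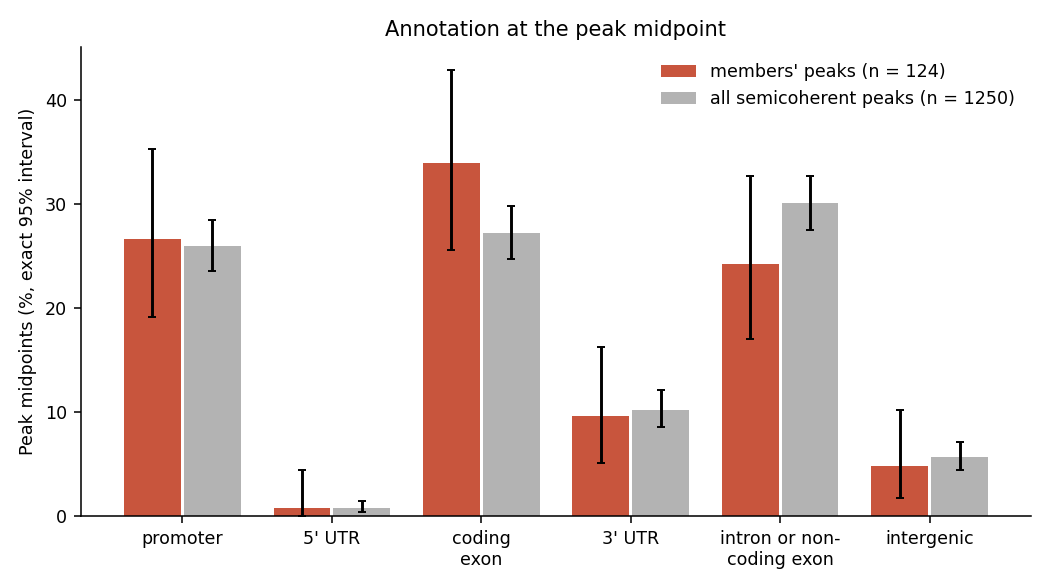
Share of peak midpoints (%) in each annotated feature for members' peaks (n = 124) and all semicoherent peaks (n = 1250), with exact 95% binomial intervals as bars. The widest gap is in coding exons, at 33.9 against 27.2%, and every members' interval includes the share over all peaks.

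Of the genes in short lists for pathways known to act in this lineage, 5 were members. The lists are not complete: the members Tao and wdp, described below with Hippo and JAK-STAT signalling, were not on them. The pathway lists held 154 distinct genes, of which these 5 are 3.25%, while members were 184 of 13945 protein-coding genes in the reference, or 1.32%, and at such shares a count of 0 in a short list is not read as an absence. None of 19 Notch pathway genes, 13 genes of entero-endocrine fate, 8 JAK-STAT genes, 17 EGFR and Ras genes, 10 Hippo genes, 11 insulin and TOR genes, 9 stress genes and 20 chromatin genes was. The E(spl) genes of the Notch pathway were not among the 19 looked up. In the coherent list stood 5 of the Notch genes (mam, numb, nct, dx and klu), 2 of the entero-endocrine genes (sina and ttk) and 4 of the EGFR and Ras genes (Egfr, pnt, aop and phl). It also held 2 of the 8 JAK-STAT, 1 of the 10 Hippo and 3 of the 11 insulin and TOR genes. Of the 9 stress genes it held 3, and of the 20 chromatin genes 1. The coherent list had 1667 identifiers, beside 13945 protein-coding genes in the reference, and no pathway list was tested. No marker of stem cells and progenitors, enterocytes, entero-endocrine cells or visceral muscle was a member. The coherent list held esg and klu of the progenitor markers, Myo31DF and brm of the enterocyte markers and CCHa2 of the entero-endocrine markers. Members came from 3 pathway lists: 1 of 24 cell cycle genes (polo), 2 of 13 Wnt genes (Axn and fz3) and 2 of 10 BMP genes (gbb and Dad).

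The BMP members act at opposite ends of the pathway. Dad encodes an inhibitory Smad, and its peak, at 3R from 17051339 to 17054530, ran over the start of the gene. It had 741, 753 and 1395 CPM in replicates 1, 2 and 3 (mean 963 ± 374 SD, n = 3), a rank of 186 of 1250, so replicates 1 and 2 were nearly equal and replicate 3 stood above both. The ligand gene gbb had a far lower peak of 52.3, 66.6 and 114 CPM (mean 77.7 ± 32.5 SD, n = 3), 884 bp upstream of the gene. That peak lay inside ytr and over the start of eIF6, a factor of ribosome maturation, and both were listed with it. Of the other BMP genes, shn was in the coherent list and 7 were in neither.

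The Wnt members were a scaffold protein and a receptor. Axn encodes Axin, the scaffold of the complex that degrades beta-catenin, and its peak covered the gene's start and the promoter. The libraries were close at 262, 218 and 245 CPM (mean 242 ± 22.3 SD, n = 3). The peak also touched the start of Mgat2 and enclosed RpS28a, so it cannot be assigned to Axn rather than to them. The peak of fz3 lay over the start of the gene and was among the lowest, with 357, 245 and 967 reads or 17.0, 12.5 and 48.3 CPM (mean 25.9 ± 19.5 SD, n = 3). There the signal came mostly from replicate 3. The coherent list held sgg, fz2 and nkd of the same pathway.

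The mitotic kinase gene polo was listed with a peak 1444 bp downstream, of 561, 464 and 436 CPM (mean 487 ± 65.7 SD, n = 3). That peak lay over the end of alphaSnap, a factor of membrane fusion, and over the start of the serpin gene Spn77Ba, and no base of polo was in it. Replicate 1 was the highest library here, which was so in 5.65% of members' peaks and in 17.9% of all semicoherent peaks. The coherent list held 6 of the cell cycle genes, CycC, CycE, twe, fzy, fzr and Dp.

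The transcription factor gene br, a BTB zinc-finger gene of the ecdysone response, was listed with 2 peaks that differed in height and place. The higher, on X from 1666345 to 1668263, had 948, 932 and 1817 CPM (mean 1232 ± 507 SD, n = 3). It lay 1475 bp beyond the end of br and wholly within dor, a subunit of endosomal tethering complexes that was in neither list. The lower, on X from 1621569 to 1622971, lay inside br at one of its promoters and had 24.3, 36.2 and 54.7 CPM (mean 38.4 ± 15.3 SD, n = 3). Both were highest in replicate 3, and the peak inside the gene ranked 1072 of 1250.

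Members, including some already described, were assigned by known function after their values were seen, and 111 of the 185 were given a group. The 25 genes of mitochondria, peroxisomes and metabolism were listed with 22 peaks with a median of 49.9 CPM. Besides CG11423 they included Pmp70, a peroxisomal transporter, with 130 ± 17.3 CPM (SD, n = 3). The mitochondrial import receptor Tom20 had 69.9 ± 17.0 CPM and the inner-membrane fusion protein Opa1 had 24.2 ± 2.84 CPM (SD, n = 3 for both). The peak of Tom20 was also listed with CG7668 and CG7433. Replicate 3 was the highest library in 15 of the 22 peaks, a share near that of all members' peaks.

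The 21 signalling genes were listed with 21 peaks, with a median of 49.2 CPM. In 11 of them the peak lay inside the gene, beside 55 of all 186 pairings, and this was not tested. They included the kinase genes Sik3 (79.7 ± 28.1 CPM), for (65.4 ± 18.7 CPM), Tao (46.6 ± 5.88 CPM) and par-1 (24.6 ± 12.2 CPM, SD, n = 3 for each). The peak of par-1 rested on 240, 527 and 713 reads, and in that of Tao the libraries were close, with 835, 977 and 1005 reads. Tao is an upstream kinase of the Hippo pathway. The gene wdp, which encodes a transmembrane protein that limits JAK-STAT signalling in the midgut, had 10.2, 15.9 and 27.7 CPM (mean 18.0 ± 8.92 SD, n = 3). Replicate 3 was the highest library in 17 of the 21 peaks, beside 72.6% of all members' peaks and 43.7% of all semicoherent peaks.

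The 16 genes of transcription, chromatin and genome maintenance had 17 peaks with a median of 68.7 CPM. The homeobox gene dve, which is known for its part in midgut patterning, had an intragenic peak of 66.2, 93.4 and 100 CPM (mean 86.6 ± 18.0 SD, n = 3). Mnn1, the fly menin, was the steadiest of the named members at 76.2 ± 1.78 CPM (SD, n = 3), in a peak shared with CG31907. Orc6, a subunit of the origin recognition complex, had 241 ± 44.0 CPM (SD, n = 3) in a peak also listed with CG1667 and Vamp7. Hmt4-20, a histone H4 methyltransferase, had 68.7 ± 19.4 CPM (SD, n = 3) in a peak that reached 692 bp into SkpA, a gene in neither list. The gene flfl, a regulatory subunit of protein phosphatase 4, had 94.9 ± 37.7 CPM (SD, n = 3) in a wide peak of 3483 bp.

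The 13 trafficking and autophagy genes had the highest median of the larger groups, 223 CPM over 13 peaks from 11.9 to 4070 CPM. Against Atg18b stood Atg7, the activating enzyme of autophagy conjugation, with 14.4, 25.3 and 44.3 CPM (mean 28.0 ± 15.1 SD, n = 3) in a peak 1960 bp upstream. That peak covered parts of Sec6 and Cth, which were in neither list. The 14 genes of RNA and ribosomes had 13 peaks with a median of 85.9 CPM, and replicate 3 was the highest library in 7 of them. The 9 genes of cytoskeleton, muscle and adhesion had 9 peaks with a median of 77.9 CPM, and replicate 3 was highest in all 9. Beside these counts, replicate 3 was highest in 72.6% of all members' peaks and in 43.7% of all semicoherent peaks. The 5 genes of protein folding and turnover, with the unfolded protein sensor Ire1 at 39.2 ± 4.46 CPM (SD, n = 3), ranged only from 15.2 to 39.2 CPM. No group was tested against another, and the groups differ in size. They also share peaks, such as the one listed with Kat60 and Vps37B, and the 111 grouped genes were listed with 87 distinct peaks. The groups are therefore not separate sets of measurements.

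Several members' peaks covered coding genes whose identifiers were in neither list. In the reference, 20 members' peaks touched 25 coding genes that were in neither list, among them Smurf, CG12091, Rab7, Bka and dor at 5 of the higher peaks. The 109 members' peaks without a coherent overlap touched 161 coding genes, of which 120 were members, 17 were in the coherent list and 24 were in neither. Both the 25 and the 24 include the reference's CG32373, whose symbol the semicoherent list gives under the identifier of Ank2. The peak of CG11095, 4049 bp wide and with 114, 162 and 130 CPM, lay around CG11095 and reached into Clic and inaE. Assignment to a gene thus rests on the authors' annotation as well as on the position of the peak.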

How the data were processed

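For each of the 3 Klu-Dam libraries, read counts over peaks were taken from the tables as deposited by the authors, with whole numbers not divided by depth, width or Dam-only signal. The deposited distances to genes and positions were used as given. The authors aligned reads to dm6 with bowtie2 in damidseq_pipeline, took log2 ratios over Dam-only on GATC fragments, called peaks per replicate, assessed reproducibility with the irreproducible discovery rate and attached genes within 2 kb with their own script. The submitters' processing notes also name HOMER. How reads were counted over peaks is not given in the sources used here. Every column with sample values was used (0 left out).

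Entries were reduced to distinct peaks, and starts were moved back to the GATC site. Peaks with 1 bp in common were called overlapping. Counts were divided by the reads in semicoherent peaks of each library (CPM). A total over peaks is not a library depth. Members' peaks held 939476, 932685 and 1450717 reads in replicates 1, 2 and 3. Features were read from the reference annotation at the midpoint with promoters taken first, then 5' UTRs, coding exons, 3' UTRs, introns or non-coding exons, and intergenic sequence. Exact binomial intervals were used for shares.

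Members and gene lists were chosen with earlier results of these data known. Named were members of the lists, of the 10 highest and 5 lowest peaks, of the 5 widest, of the 5 highest and 5 lowest replicate 3 ratios, and those with more than 1 peak. Other names were chosen after values were seen. One result under this rule is not reported here. No test was run. Alternatives were scaling by median of ratios, a minimum of 100 reads, other overlaps and edges, other promoters and motifs, and leaving out each replicate. Labels give different isolation dates for the replicate sets. The software was Python 3.11.15 with matplotlib 3.10.9, scipy 1.17.1, pandas 2.3.3 and numpy 2.4.6, and functions were tested on simulated data.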

Additional observations from a re-analysis of the deposited data

How the results depend on the processing

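Among 25 alternatives, the values that moved most were promoter and motif shares under other definitions and, under leaving out 1 replicate, the coefficient of variation and the log2 ratio. Members' peaks with a promoter midpoint were 26.6%, 61.3% when any base counted and 18.5% with promoters of 250 bp, and the share with a motif was 24.2% for GCGTGGG and 64.5% for GTGGGNG. Leaving out 1 replicate gave medians from 46.0 to 63.3 CPM (53.6 with all), coefficients of variation from 17.2% without replicate 1 to 37.8% without replicate 2 (28.2% with all) and log2 ratios of replicate 3 from 0.31 without replicate 1 to 0.79 without replicate 2 (0.48 with all). Both log2 ratios and the 17.2% differ from the value with all replicates by more than 1.5 times. Scaling by the median of ratios over peaks with shared edges, which raised the median log2 ratio of all peaks by 0.10 to 0.16, gave 0.59 for members, replicate 3 highest in 104 members' peaks (83.9%, against 54.4% of all) and replicate 1 lowest in 81 (65.3%, against 42.5%); these counts were added after seeing the data. No paired analysis was possible because only 1 group, Klu-Dam, had counts to use. For the same reason no peak could be set against the background of the methylase alone. In members' peaks with under 100 reads in a library, 2 of 124, counting error limits the values most.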
